A study of Sus scrofa with 6 samples.

Results

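The steroid hormone receptors and steroid-converting enzymes of the aortic valve leaflet were read on 14 of the 24123 probe sets of the Affymetrix Porcine Genome Array, and these probe sets belong to 7 of the 6765 genes named singly on the array. They were found by name among 9 listed genes. The receptors were ESR1, ESR2, PGR and NR3C1, and the enzymes were CYP19A1, HSD11B1 and HSD11B2. No probe set was named for NR3C2, the mineralocorticoid receptor, or for STS, the steroid sulfatase, so these 2 listed genes were not analysed here. NR3C1 had 4 probe sets and CYP19A1 had 4 of its own plus 1 that it shares with CYP19A2 and CYP19A3, while each of the other 5 genes had a single probe set. Leaflet RNA had come from 3 castrated male and 3 female pigs of mixed breed, all 5 months old and about 90 kg, with 1 pig per array. Leaflets were taken within 5 hours of death, and their endothelium had been scraped with a scalpel. Genes of an endothelial list were still detected, as given below. The males lack testicular hormones, so the comparison sets castrated males against females and not intact males against females. Values are on the log2 scale after RMA, a method that removes background, makes the arrays share 1 distribution and combines the probes of each probe set into 1 number.

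Steroid receptors are transcription factors that bind a hormone inside the cell, and in its absence the glucocorticoid receptor is held by the HSP90 chaperone machinery. HSD11B1 regenerates active cortisol from cortisone within the cell, and HSD11B2 does the reverse and keeps cortisol away from the mineralocorticoid receptor. CYP19A1 is aromatase, which makes estrogens from androgens, and pigs carry further aromatase genes, CYP19A2 and CYP19A3, in addition to it. Stromal fibroblasts are a known site of glucocorticoid action.

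The leaflets carried a clear signal for NR3C1, the glucocorticoid receptor, and for HSD11B1. HSD11B2 gave a low signal and ESR1, estrogen receptor alpha, one at the edge of detection, while ESR2, PGR and most CYP19A1 probe sets lay under the limit. A value was read as detected when it lay above the 25th percentile of its own array, which was between 5.46 and 5.58. By this reading 6 of the 14 probe sets were detected on all 6 arrays, against 71.1% of all 23999 probe sets other than controls. None of the 6 arrays was above the limit at 7 of the 14 probe sets, against 21.3% of all. Probe sets differ in how strongly they bind their target, so these levels do not rank the genes. As a second reference, 7 probe sets of XIST, DDX3Y, EIF1AY and UTY lay between 2.67 and 4.85 in the sex that lacks the transcript, and between 5.90 and 11.82 in the sex that has it. Those probe sets also matched the stated sex on every array.

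No receptor or enzyme of the set was called different between castrated male and female leaflets. A probe set was called at an adjusted p under 0.05 from limma over all 23999 probe sets and a difference of at least 2-fold, and 0 of the 14 were called, against 0.304% of all probe sets. By the unadjusted p of limma, 1 of the 14 was under 0.05, against 16.9% of all. The values of the sexes failed to overlap at 1 of the 14 probe sets, against 22.4% of all, and both counts are the same probe set of NR3C1. Over all probe sets, males were the higher sex without overlap at 11.1%. The CV filter of the study's methods was read as the 10% of probe sets with the highest ratio of SD to mean. That kept 2412 probe sets and none of the 14. The methods describe the filter as excluding values too unlike across replicates, so its direction was inferred. The filter called 7.59% of what it kept. A difference between the sexes itself raises the ratio, so adjusted p values after the filter are not independent of the selection. Log2 fold changes of the 14 lay between -0.46 and 0.17, with 4 above and 10 below 0 and a median of -0.08, beside a median of -0.01 over all probe sets. All 14 were under 0.5 in size, as were 89.6% of all. The widest 95% interval reached 0.78 on the log2 scale, or 1.72-fold, so every interval stopped short of 2-fold. A probe set at background understates a difference, so these intervals bear on expression only where the gene was detected.

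**Figure D1:**
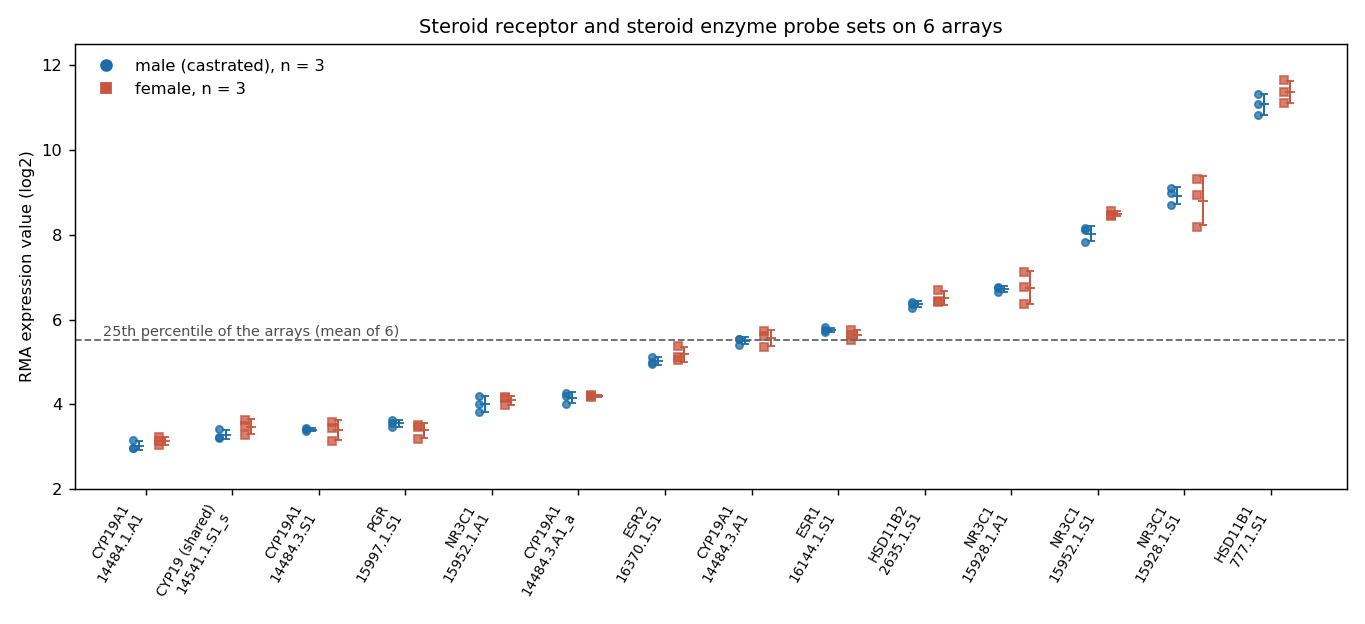
RMA expression value (log2) of the 14 probe sets in leaflets of 3 castrated males (circles) and 3 females (squares), ordered by mean, with bars for mean ± SD per sex. The dashed line is the 25th percentile, and 6 probe sets of NR3C1, HSD11B1, HSD11B2 and ESR1 lie above it on all 6 arrays.

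**Figure D2:**
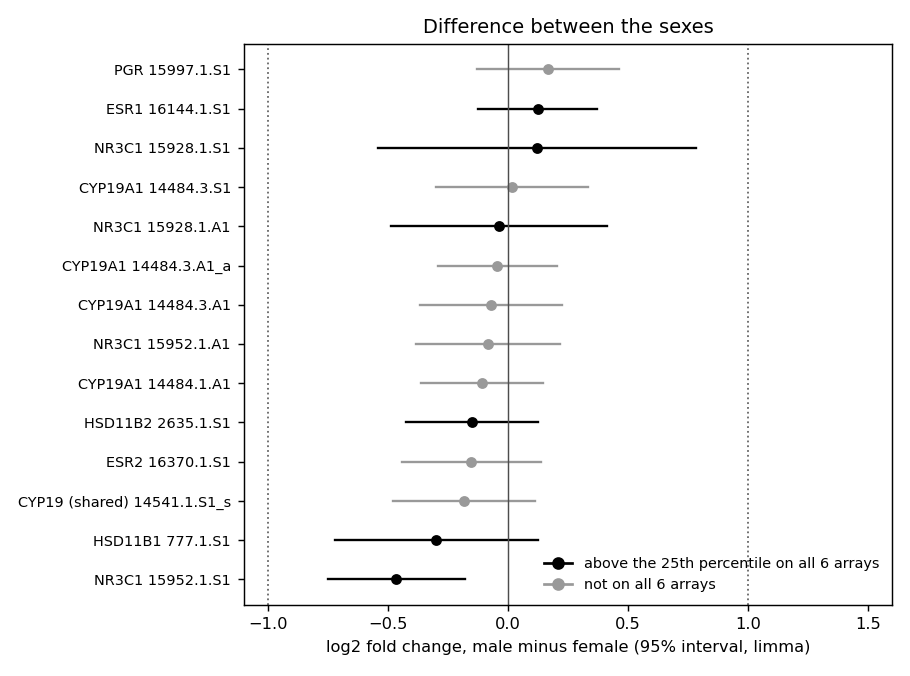
Log2 fold change (male minus female) of each probe set with its 95% interval from limma, in black for the 6 probe sets detected on all 6 arrays and in grey for the rest. The dotted lines mark 2-fold, which no interval reaches, and only the interval of NR3C1 at Ssc.15952.1.S1_at leaves out 0.

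The receptor of cortisol, NR3C1, gave different pictures at its probe sets. The annotation gives Ssc.15952.1.S1_at the same sequence record as Ssc.15952.1.A1_at. Log2 values of Ssc.15952.1.S1_at were 7.82, 8.15 and 8.11 in males and 8.44, 8.56 and 8.48 in females. All 3 males were below all 3 females, while the females lay close together. The mean was 8.03 ± 0.18 in males and 8.49 ± 0.06 in females (SD, n = 3 each), which is -0.46 on the log2 scale (standard error 0.12) and 0.725 of the female level (95% interval 0.596 to 0.883). This difference did not pass the test over all probe sets (unadjusted p = 0.00605, adjusted p = 0.159 from limma). It ranked 907 of 23999 by p, and male values below all female values were found at 11.4% of all probe sets.

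The probe set Ssc.15928.1.S1_at, given a RefSeq record of NR3C1 in the annotation, did not show this difference. Its log2 values were 8.69, 9.10 and 8.99 in males and 9.32, 8.93 and 8.18 in females. The sexes overlapped, and both the highest and the lowest value were in females. Males minus females came to 0.12 on the log2 scale (standard error 0.28, limma adjusted p = 0.870). At Ssc.15928.1.A1_at, a probe set of the same cluster, values were 6.77, 6.74 and 6.64 in males and 7.13, 6.36 and 6.77 in females, and the sexes were apart by -0.04 (standard error 0.19). Here too the females were the more spread sex. The remaining probe set, Ssc.15952.1.A1_at, was below the detection limit everywhere, at 3.83 to 4.20 in males and 3.98 to 4.17 in females.

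The distance between the 2 brightest NR3C1 probe sets varied most among females. The log2 difference within an array, Ssc.15928.1.S1_at minus Ssc.15952.1.S1_at, was 0.87, 0.94 and 0.88 in males and 0.88, 0.37 and -0.30 in females. The males and female 1 were alike, whereas females 2 and 3 had less signal at Ssc.15928.1.S1_at relative to the other one. This contrast between probe sets was chosen after their values were seen and carries no test, and which stretch of the transcript each probe set reads was not analysed here.

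**Figure D3:**
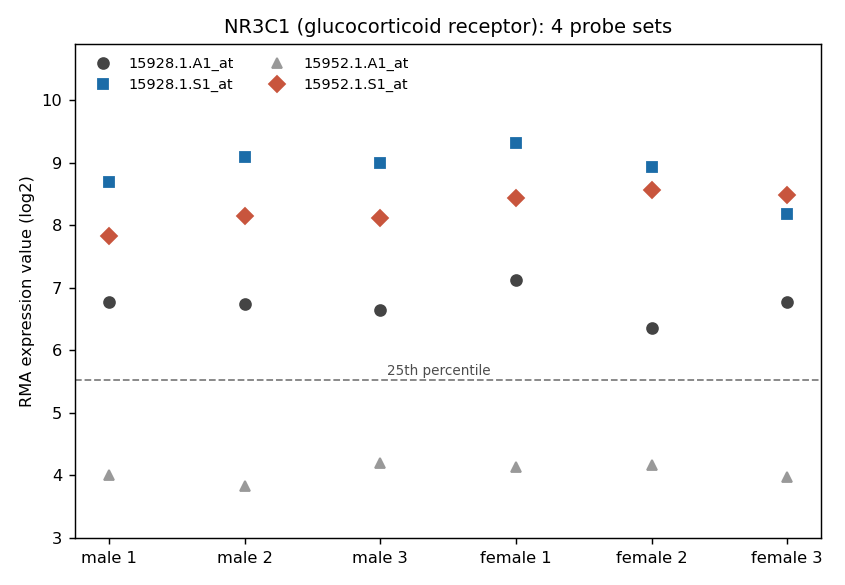
RMA expression value (log2) of the 4 NR3C1 probe sets on each array, males left of females, with the 25th percentile as a dashed line. Ssc.15952.1.S1_at (diamonds) is lower on every male array, between 7.82 and 8.15, than on any female array, between 8.44 and 8.56, and Ssc.15928.1.S1_at (squares) is lowest in female 3, at 8.18.

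The estrogen and progesterone receptors were at or under the detection limit in both sexes. ESR1, the estrogen receptor alpha, had values of 5.71, 5.81 and 5.75 in males and 5.75, 5.51 and 5.64 in females. Every value lay above the 25th percentile of its array, but the mean exceeded the mean percentile by no more than 0.25 in males and 0.10 in females. The log2 fold change was 0.12 (95% interval -0.12 to 0.37, limma adjusted p = 0.600). ESR2, the estrogen receptor beta, had values of 5.01, 4.94 and 5.13 in males and 5.04, 5.13 and 5.37 in females. It was under the 25th percentile on each array, although above the highest value of 4.85 that the sex chromosome probe sets gave without their transcript. PGR, the progesterone receptor and a known target of the estrogen receptor, had values of 3.46, 3.57 and 3.63 in males and 3.53, 3.17 and 3.46 in females. These lay within the range of the absent sex chromosome transcripts. Log2 fold changes were -0.15 for ESR2 and 0.17 for PGR, and neither passed (adjusted p = 0.576 and 0.548 from limma).

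HSD11B1, which regenerates cortisol, was well above the detection limit on all arrays. Its values were 10.82, 11.08 and 11.32 in males and 11.11, 11.64 and 11.37 in females. The lowest values were in males and the highest in females, with overlap between male 3 and female 1. The mean was 11.08 ± 0.25 in males and 11.37 ± 0.26 in females (SD, n = 3 each), a male minus female difference of -0.30 (standard error 0.18) that did not pass (limma adjusted p = 0.448). The interval of 0.607 to 1.09 of the female level covers lower and slightly higher male levels. HSD11B2, the cortisol-inactivating counterpart, had values of 6.42, 6.38 and 6.28 in males and 6.70, 6.41 and 6.43 in females. Female 1 stood above the other 5 arrays, which lay between 6.28 and 6.43. Its log2 fold change was -0.15 (95% interval -0.43 to 0.13, adjusted p = 0.566 from limma).

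Both enzymes had a lower male mean without passing, and their balance differed by less than the spread between animals. The log2 difference HSD11B1 minus HSD11B2 within an array was 4.71 ± 0.32 in males and 4.86 ± 0.42 in females (SD, n = 3 each). The male minus female difference was -0.15 (exact two-sided permutation p = 0.7, where 3 against 3 arrays cannot go below 0.1). Without male replicate 1 or female replicate 2 its sign turned, to 0.01 and 0.04.

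Markers of 2 cell types are given beside these values, and no gene of either list was called over all probe sets. The mean over 7 genes of valve interstitial cells and fibroblasts was between 12.18 and 12.386 in males and between 12.393 and 12.53 in females. It was thus lower in each male than in any female, by a narrow margin. Male 1 was the lowest array there and for HSD11B1, but also for the means of smooth muscle and glucocorticoid responsive genes. The highest array was female 3 for the fibroblast mean and female 2 for HSD11B1. All 7 of the interstitial and fibroblast genes were detected on all arrays. Of these, 6 had a lower male mean, against 41.7% of all genes (median log2 fold change -0.16). Only 1 had an unadjusted p under 0.05 from limma, or 14.3% against 17.5% of all genes. The mean over 13 endothelial genes was between 9.39 and 10.24 in males and between 8.91 and 9.61 in females, with overlap of male 3 and female 2. In mean 10 of 13 genes were higher in males, against 58.3% of all genes, with a median of 0.90. Of the 13, 12 were detected on all arrays and KDR on none, at the probe set that stands for it. With the CV filter 2 of the 13 passed, ICAM2 and ESAM, against 0.843% of all genes, and both are in the study's own list of called genes. The study also reported KDR and CD93 as higher in males, so the reading of KDR as undetected holds only for the probe set used here. In RNA of whole leaflets, fewer cells of a type and less RNA per cell cannot be told apart, and the part of the cell mixture in the values of HSD11B1 and NR3C1 was not tested. Of 5 cardiomyocyte genes TNNT2, MYL2 and NPPA were under the limit on all arrays, MYH7 was above it on 2, and TNNI3 was above it on all 6, with a log2 fold change of -0.43 (limma adjusted p = 0.374).

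**Figure D4:**
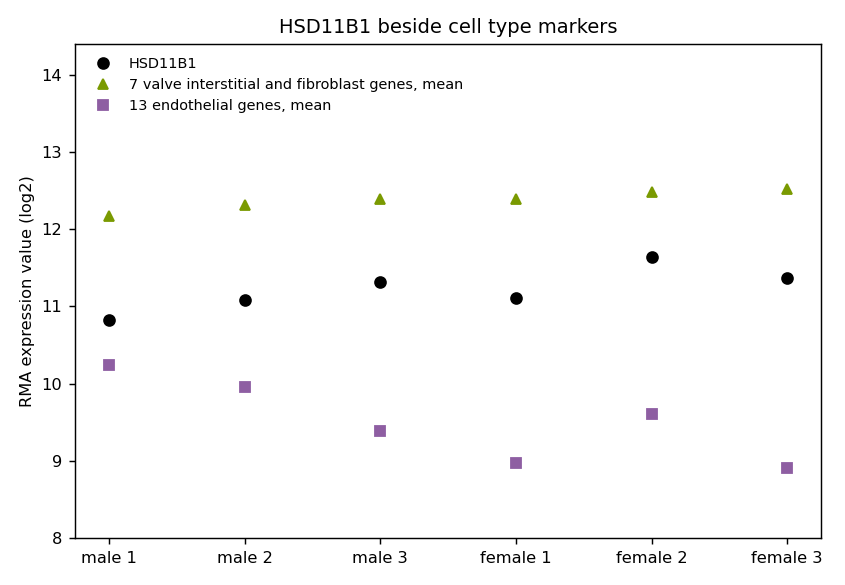
RMA expression value (log2) of HSD11B1 and the mean of 7 valve interstitial and fibroblast genes and of 13 endothelial genes on each array, males left of females. HSD11B1 runs between 10.82 and 11.32 in males and between 11.11 and 11.64 in females. The fibroblast mean is lower in each male than in any female. In males 1 and 2 the endothelial mean is above that of every female.

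Aromatase was near the background at its own probe sets. CYP19A1 at Ssc.14484.3.A1_at had values of 5.55, 5.54 and 5.41 in males and 5.62, 5.36 and 5.74 in females, which passed the 25th percentile on 4 of 6 arrays. This was the probe set closest to the limit. The other CYP19A1 probe sets lay under the limit on all arrays, with sex means between 3.03 and 4.20. The shared aromatase probe set Ssc.14541.1.S1_s_at was at 3.29 ± 0.11 in males and 3.47 ± 0.17 in females (SD, n = 3 each), also under the limit. Log2 fold changes of the 5 were between -0.18 and 0.02, with adjusted p values from 0.507 upward from limma.

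Probe sets named for the paralog CYP19A3, which are not among the 14, were under the limit in 6 of 8 cases. The exceptions were Ssc.16184.1.S1_s_at, with a mean of 6.34 in males and 6.40 in females, and Ssc.22694.1.S1_at. Ssc.22694.1.S1_at lay between 8.85 and 9.04 in males and between 8.69 and 8.78 in females, higher in each male than in any female. Its log2 fold change of 0.22 did not pass (limma adjusted p = 0.324). Ssc.4548.1.A1_at, under the limit, went the other way and was lower in each male than in any female (-0.24, limma adjusted p = 0.329). The sexes failed to overlap at 22.4% of all probe sets. Whether Ssc.22694.1.S1_at reads an aromatase transcript was not tested. These probe sets were named after their values were seen.

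The females were the more spread sex in most of these probe sets. The male SD was the smaller one at 10 of the 14 probe sets, as at 57.7% of all probe sets, and the median SD of the 14 was 0.10 in males and 0.17 in females, beside 0.14 and 0.16 over all. Profiles over the 6 arrays were compared through the root mean square difference of values centred on their mean, among 6093 other detected genes. Closest to HSD11B1 were FAM3C and GSN (gelsolin), each at 0.05. Closest to NR3C1 at Ssc.15952.1.S1_at were ENO3 (0.05) and PGAM2 (0.06), the muscle forms of 2 glycolytic enzymes. NR3C1 at Ssc.15928.1.S1_at had no match as close, with JAK3 and SF3B1 at 0.13, and at Ssc.15928.1.A1_at GGNBP2 (0.04) and SUGP2 (0.07) came first. For HSD11B2 these were SAT1 and WDR91 (each 0.05), for ESR1 TM2D1 and ZC3H15 (each 0.03) and for CYP19A1 at Ssc.14484.3.A1_at STAM and PCK1 (each 0.03). Among so many genes and only 6 arrays some profile always lies close, so the matches are a description.

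None of the other receptors and carriers of steroids passed the test. Of 16 listed genes 5 were measured and 0 passed, over all probe sets or with the CV filter, and none had an unadjusted p under 0.05 from limma. PGRMC1, a membrane-associated progesterone receptor component, was at a mean of 10.84 in males and 10.69 in females (log2 fold change 0.15). SERPINA6, the corticosteroid-binding globulin, had a log2 fold change of -0.15 and PAQR7, a membrane progestin receptor, one of -0.01. The median of the list was 0.00 and its sign turned to -0.01 with either rescaling of the arrays.

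Among chaperones and coregulators of the receptors, 22 of 30 listed genes were measured. None passed over all probe sets, where 0.222% of all genes passed with 1 probe set per gene, and 1 passed with the CV filter, against 0.843% of all genes. An unadjusted p under 0.05 was found for 6 genes higher and 3 lower in males, 40.9% of the list against 17.5% of all genes, of which 11% of all genes were higher and 6.53% lower. The sexes did not overlap for 11 of the 22, or 50% against 24.7% of all genes. The median log2 fold change was 0.12, beside 0.05 over all genes. CITED1, a transcriptional coactivator that binds ESR1, had values of 7.86, 8.49 and 8.58 in males and 9.45, 9.97 and 10.61 in females. All males were below all females, and it fell by 1.70 on the log2 scale with the CV filter (adjusted p = 0.0289 from limma), but did not pass over all probe sets (adjusted p = 0.0919). CITED1 is among the genes the study had called on these arrays, so its direction here is not independent evidence. SMARCA2, an ATPase of a chromatin-remodeling complex, had a log2 fold change of -0.47 and DNAJB1, an HSP40 cochaperone, one of 0.47 (adjusted p = 0.156 and 0.157 from limma).

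None of the chaperones that hold the unliganded receptors passed the test. HSP90AB1 was at a mean of 12.89 in males and 12.72 in females, with a log2 fold change of 0.17, and the 5 probe sets of HSP90AA1 had log2 fold changes from -0.14 to 0.40. The immunophilin FKBP4, which favors receptor activation, had one of 0.34 (adjusted p = 0.361 from limma). The cochaperones STIP1 (0.26), PTGES3 (0.35) and PPID (0.33), named after their values were seen, were higher in each male than in any female without passing the adjusted test. A second probe set of PPID had a log2 fold change of -0.04 and one of PTGES3 a log2 fold change of 0.53, and at both the sexes overlapped. The coregulators NCOA1 (-0.28) and NCOA2 (-0.23), also named after their values were seen, went the other way. Each was lower in each male than in any female at the probe set that stands for it, without passing the adjusted test. The other probe sets of NCOA1 ranged from -0.69 to 0.03.

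None of the enzymes of steroid synthesis and inactivation was called over all probe sets. Of 46 listed genes 25 were measured, 16 of them detected on all arrays. CYP3A4, which the study called, has another symbol in the annotation and is not among the 25. At the probe set that stands for each gene none passed, and 3 had an unadjusted p under 0.05 (12% of the list against 17.5% of all genes). The sexes did not overlap for 6 of the 25, or 24% against 24.7% of all genes. CYP27A1, the mitochondrial sterol 27-hydroxylase, had values of 10.71, 11.29 and 11.14 in males and 12.43, 12.12 and 11.93 in females, lower in each male than in any female. The sexes were apart by -1.11 on the log2 scale (standard error 0.19, limma adjusted p = 0.0751), and its 2 other probe sets had log2 fold changes of -0.33 and -1.34. The last of these, a dimmer one, fell with the CV filter (adjusted p = 0.0483 from limma) and did not pass over all probe sets (0.108). CYP27A1 is among the genes called by the study on these arrays. HSD3B1 (0.45) and HSD17B1 (-0.43), which act in the synthesis of progesterone and estradiol, followed with adjusted p values of 0.265 and 0.294 from limma, and a second probe set of HSD3B1 had a log2 fold change of -0.03. SUMF1, which activates sulfatases such as STS, was under the limit on all arrays (mean 4.07 in males and 4.29 in females). The median of the list was 0.01 and lay just under 0 when arrays were centred.

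Glucocorticoid responsive genes were more often lower than higher in male leaflets in mean, and none was called over all probe sets. The list was chosen with earlier results of these data known, so this direction is only a description. Of 32 measured genes among 40 listed, 22 had a lower male mean, or 68.8% against 41.7% of all genes, and the median log2 fold change was -0.14 against 0.05. An unadjusted p under 0.05 from limma was reached by 5 lower genes and 1 higher gene, 18.8% of the list against 17.5% of all genes. The higher gene was ANXA1, with a log2 fold change of 0.42 (limma adjusted p = 0.190) and each male above each female. ANXA1 was named after its values were seen. KLF15, a transcription factor induced by glucocorticoids, had values of 8.91, 9.39 and 9.51 in males and 10.37, 9.93 and 10.54 in females. Each male was below each female, by -1.01 in mean (standard error 0.21), and the test was not passed (limma adjusted p = 0.115). Over the list, the sexes did not overlap for 6 of the 32 genes, or 18.8% against 24.7% of all genes. PER1, a circadian clock gene and direct receptor target, had values of 11.86, 12.12 and 12.13 in males and 12.51, 12.53 and 12.68 in females, again without overlap. The mean difference was -0.53 (limma adjusted p = 0.125), and a second, dimmer probe set had one of -0.06. ANGPTL4, an inhibitor of lipoprotein lipase, fell by 1.47 with the CV filter (adjusted p = 0.0458 from limma) and not over all probe sets (0.119). Its second probe set, at -1.17, was kept by the CV filter and did not pass there (adjusted p = 0.0702 from limma). ANGPTL4 too was called by the study on these arrays.

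Other known targets of the receptor lay on both sides of 0, and none passed. MT1A, a metallothionein (-1.54), CRISPLD2 (-0.68 and -0.84 at its 2 probe sets) and KLF9, a transcription factor (-0.34, and -0.03 at an undetected probe set), had lower male means and were named after their values were seen. FKBP5, an immunophilin that restrains the receptor and is induced by it, had values of 10.51, 10.52 and 10.14 in males and 11.21, 9.85 and 10.58 in females at its brighter probe set. The sexes overlapped, with log2 fold changes of -0.16 and -0.08 at its 2 probe sets. TSC22D3, also known as GILZ, had log2 fold changes of 0.04 and 0.30 and DUSP1, a phosphatase of MAP kinases, one of 0.25, both named after their values were seen. SGK1, a kinase induced by both corticosteroid receptors, was apart by 0.50 (limma adjusted p = 0.326). The mineralocorticoid responsive genes, 9 measured of 15, held PER1, SGK1 and ATP1B1, a subunit of the sodium pump (0.37), as the genes with the smallest p. None of the 9 passed, and 7 had a higher male mean, against 58.3% of all genes (median 0.10).

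Estrogen responsive genes were more often higher in males in mean. This direction too is only a description, because the list was chosen with earlier results of these data known. Of 21 measured genes among 30 listed, 16 had a higher male mean, against 58.3% of all genes, and the median log2 fold change was 0.17. None passed over all probe sets, while 5 had an unadjusted p under 0.05 from limma, all higher in males (23.8% against 17.5% of all genes). The sexes did not overlap for 4 of the 21, or 19% against 24.7% of all genes. RARA, a retinoic acid receptor, had values of 6.17, 5.96 and 5.94 in males and 5.47, 5.28 and 5.36 in females, higher in each male and, in females, under the detection limit (mean difference 0.65, limma adjusted p = 0.0751). AREG, amphiregulin, a ligand of the EGF receptor, had values of 8.69, 8.73 and 6.75 in males and 5.75, 6.07 and 5.31 in females. Each male exceeded each female, with male 3 well under the other males. AREG rose by 2.34 with the CV filter (adjusted p = 0.0259 from limma) and did not pass over all probe sets (0.125). It is another gene of the study's own list. PDZK1, a scaffold protein, had log2 fold changes of 0.71 and 0.21 at its 2 probe sets. PGR, on this list as well, was at the background as given above. The endothelial genes also had higher male means (median 0.90), and their part in the values of this list was not tested.

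**Figure D5:**
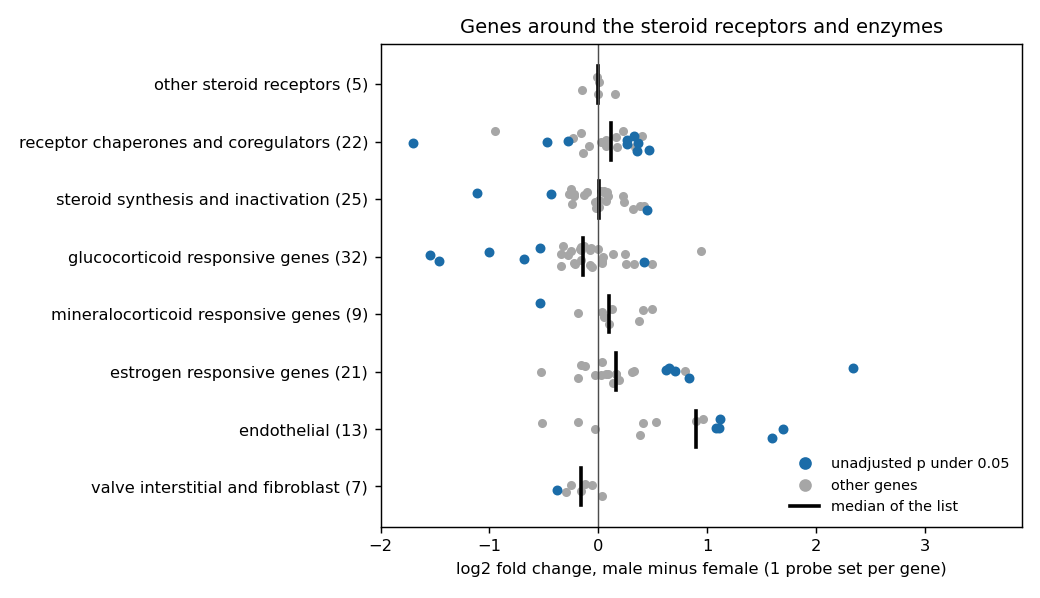
Log2 fold change (male minus female) of each measured gene of 6 lists around the steroid receptors and enzymes and of 2 cell type lists, 1 probe set per gene, with the number of measured genes in parentheses. Genes with an unadjusted p under 0.05 from limma are in blue and the black bar is the median, which is -0.14 for glucocorticoid responsive, 0.17 for estrogen responsive and 0.90 for endothelial genes.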

How the data were processed

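Leaflet RNA (400 ng of total RNA per animal) had been amplified and labelled with biotin, and the labelled product was hybridized to 6 arrays. The deposited log2 values come from RMA, run by the authors in R 2.12.0, and were taken as they are. RMA forces all arrays to 1 distribution, which can hide a shift shared by all genes, and with 3 arrays per sex small differences cannot be resolved. Names are from GEO's annotation, in which 10069 probe sets carry 1 gene, 198 carry several and 13732 carry none. The study's list of called genes names no member.

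Castrated males were compared with females in limma 3.58.1 (R 4.3.3, moderated by eBayes, sex as the only term). P values were adjusted by Benjamini-Hochberg over all 23999 probe sets, without the 124 controls, and separately after the CV filter. The share of 10% kept by that filter was inferred and is not stated in the methods. Its direction was inferred too, since the methods speak of excluding values too unlike across replicates. This reading gave 183 calls, and the study reported 183 genes. The script was tested on simulated data with known changes. A gene of a list is represented by its probe set with the highest mean. The lists around the members hold 110 measured genes, each counted once, and the cell type lists of smooth muscle, macrophage and adipocyte genes had 0 called genes. The members and lists were chosen with earlier results of these data known, and ANGPTL4, AREG, CITED1, CYP27A1 and CYP3A4 of the lists are among the study's called genes. Named genes are the members, up to 3 genes per list with the smallest p, HSP90, FKBP4, FKBP5 and SUMF1 as direct partners, and the 2 closest profiles. Genes named after their values were seen are marked. Alternatives were median centring, repeated quantile normalization, a filter on dim probe sets, a trended or robust variance prior, no minimum fold, other shares of the CV filter, other detection limits, the mean over probe sets, a replicate block and leaving out each array. Sequences and coordinates were not used here.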

Additional observations from a re-analysis of the deposited data

How the results depend on the processing

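No member probe set was called under any alternative run, and the smallest adjusted p of a member was 0.136 from limma (NR3C1 at Ssc.15952.1.S1_at). Of 161 log2 fold changes of members under alternatives, 154 kept their sign and 7 turned, each when 1 array was left out. With 1 array left out, NR3C1 ranged from -0.23 to 0.15 at Ssc.15928.1.A1_at, from -0.20 to 0.37 at Ssc.15928.1.S1_at and from -0.18 to 0.0066 at Ssc.15952.1.A1_at. CYP19A1 ranged from -0.10 to 0.028 at Ssc.14484.3.A1_a_at, from -0.18 to 0.011 at Ssc.14484.3.A1_at and from -0.11 to 0.12 at Ssc.14484.3.S1_at. The difference HSD11B1 minus HSD11B2 ranged from -0.37 to 0.038. Calls over all probe sets ranged from 13 (without male replicate 2) to 285 (without male replicate 3), against 73 with all arrays, and were 21 without male replicate 1, 40 without female replicate 2 and 20 without female replicate 3. With the CV filter they ranged from 56 (without male replicate 1) to 391 (without male replicate 3), against 183. Over all probe sets, estrogen responsive genes had 0 to 1 calls, the 1 without male replicate 3. The causes were not tested.

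Replicate numbers did not pair the arrays: deviations of same-numbered arrays correlated between -0.10 and 0.27 over 3 pairs, and 1 of 3 males was most like the female of its number. A replicate block gave 204 calls over all probe sets and 302 with the CV filter, and 1 call each among chaperones and coregulators, glucocorticoid responsive and estrogen responsive genes. With the median of each array as the limit, 3 member probe sets were detected on all 6 arrays. Signal near the background limits what can be read for ESR2, PGR and CYP19A1.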
